A study of Mus musculus with 16 samples.

Results

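Transcripts of 10 genes that mark mast cells, basophils and eosinophils were followed by RNA sequencing in GFP-sorted mouse leukaemia cells. The genes were found by symbol in a table of 55487 genes: Tph1, Hdc, Cpa3, Mcpt8, Tpsb2, Fcer1a, Ms4a2, Fcer1g, Prg2 and Epx. All 10 were present in the table, and 8 had enough counts to be tested. Mcpt8 and Tpsb2 did not pass the filter on low counts.

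The cells carried the fusion gene CBFB-MYH11 and GFP and, per the design text, an shRNA against MYH11 that doxycycline switches on. They were grown in congenic recipient mice. There were 16 libraries in 5 groups. Secondary disease (4 libraries) came from spleens of a separate cohort that drank doxycycline until signs of fatal illness. Spleen doxycycline and bone marrow doxycycline (3 libraries each) came from mice given 3 mg/ml doxycycline in 5% sucrose for 7 days after engraftment. Spleen control and bone marrow control (3 libraries each) came from mice given 5% sucrose water for the same 7 days. The labels of the control libraries name fusion-expressing primary cells and mention no shRNA, whereas the design text describes transduced cells in both arms. No group received doxycycline without the shRNA, so the effects of the drug and of the shRNA cannot be told apart. Secondary disease also differed from the 7-day groups in cohort and in duration of treatment, which cannot be told apart either.

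Mast cells and basophils carry the high-affinity IgE receptor, built from an alpha chain that binds IgE, a beta chain that amplifies the signal and a gamma chain that passes it on. They store amines made by Hdc and Tph1 together with proteases such as Cpa3, Mcpt8 and tryptase, and release them when IgE on the receptor meets its antigen. Eosinophils are a separate granulocyte lineage, whose granules hold toxic proteins such as the products of Prg2 and Epx.

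Sequencing depth, as the sum of expected counts, lay between 12.3 and 39.4 M (mega-counts) in the 16 libraries. Correlations of log2 CPM (counts scaled to library size) between replicates were lowest for secondary disease replicate 4, at 0.822 to 0.825 with the other 3 libraries of its group. The 3 spleen doxycycline libraries were also spread, at 0.904 between replicates 1 and 2 and 0.942 for both other pairs, so this measure does not single out 1 of them. The 10 genes took 0.0147% of the counts in spleen doxycycline replicate 2, against 0.0917 to 0.238% in the other 15 libraries. For that reason, seen in the data, it is left out together with secondary disease replicate 4 in some values below, where they are called the libraries that stand apart. That choice used the levels of the 10 genes themselves. Calls of members in fits without spleen doxycycline replicate 2 are therefore descriptions and no independent evidence. Kit, a receptor of progenitors and mast cells, was present in all 16 libraries at 54.1 to 270.0 CPM, and Cd34 reached at most 0.897 CPM. Mouse Myh11 stayed at or below 0.352 CPM in every library and so could not serve as a check of the knockdown. Cbfb, the gene named first in the fusion, averaged 92.5 ± 3.85 CPM in bone marrow doxycycline and 128 ± 9.92 CPM in bone marrow control (SD, n = 3 each). Values of Cbfb in the spleen groups and a test of it are not given here, so these means are no check of the knockdown either.

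The promoters of the 3 genes that passed the test in any comparison, Tph1, Fcer1a and Fcer1g, are shown as the regulatory sequence beside the transcripts that changed. Each window runs from 250 bases before to 50 bases after a RefSeq gene start (GRCm38.p6, gene strand, 5′ to 3′). Capitals mark GATA motifs (the letters AGATAA or the letters AGATAG, likewise the letters TGATAA or the letters TGATAG), RUNX motifs (the letters TGTGGT or the letters TGCGGT) and the E-box (the letters CAGCTG), all searched on both strands. Positions count from the gene start, and none of the marked motifs overlap.
Tph1, window 1, chr7:46672488-46672787, minus strand: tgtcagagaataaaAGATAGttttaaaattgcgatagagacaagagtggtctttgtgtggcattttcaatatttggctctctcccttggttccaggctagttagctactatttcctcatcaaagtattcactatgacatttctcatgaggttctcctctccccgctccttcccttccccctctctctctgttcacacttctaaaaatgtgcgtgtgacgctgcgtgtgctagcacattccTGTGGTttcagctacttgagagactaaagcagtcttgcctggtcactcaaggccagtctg
Tph1, window 2, chr7:46667328-46667627, minus strand: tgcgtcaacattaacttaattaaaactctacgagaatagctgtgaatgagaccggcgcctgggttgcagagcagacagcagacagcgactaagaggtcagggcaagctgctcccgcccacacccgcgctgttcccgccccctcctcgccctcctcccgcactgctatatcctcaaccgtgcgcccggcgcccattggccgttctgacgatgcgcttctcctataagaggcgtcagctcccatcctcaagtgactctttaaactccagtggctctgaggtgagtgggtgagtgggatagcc
Fcer1a, chr1:173227180-173227479, minus strand: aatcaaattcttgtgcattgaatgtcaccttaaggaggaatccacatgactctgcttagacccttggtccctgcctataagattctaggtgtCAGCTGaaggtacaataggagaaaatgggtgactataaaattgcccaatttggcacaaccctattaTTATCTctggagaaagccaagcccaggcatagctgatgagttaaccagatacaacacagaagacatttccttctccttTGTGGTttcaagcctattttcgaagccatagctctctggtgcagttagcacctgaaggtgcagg
Fcer1g, chr1:171234300-171234599, minus strand: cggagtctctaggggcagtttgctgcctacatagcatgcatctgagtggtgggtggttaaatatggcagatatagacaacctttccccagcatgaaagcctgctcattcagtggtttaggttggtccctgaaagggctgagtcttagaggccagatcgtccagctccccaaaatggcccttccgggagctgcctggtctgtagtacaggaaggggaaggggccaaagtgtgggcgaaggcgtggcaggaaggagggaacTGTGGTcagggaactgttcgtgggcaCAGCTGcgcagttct

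The first Tph1 window held a GATA motif at position -236 and a RUNX motif at position -10, and the second held none of the motifs. The Fcer1a window held an E-box at -158, a GATA motif on the opposite strand at -92 and a RUNX motif at -14. The Fcer1g window held a RUNX motif at 10 and an E-box at 36, with no match to the GATA letters. Of 32851 promoter windows of the same length, 29.8% held a GATA motif, 22.4% a RUNX motif and 16.3% the E-box. A match describes the letters only. RefSeq windows were found for 8 of the 10 genes, and Prg2 and Tpsb2 had none. All coordinates of genes below are GRCm38 in GENCODE M21.

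Tph1 encodes tryptophan hydroxylase 1, the rate-limiting enzyme of serotonin synthesis outside the brain (ENSMUSG00000040046, chromosome 7, 46644641 to 46672537, minus strand). In secondary disease it stood at 20.9, 32.9, 24.5 and 28.0 CPM, scaled by TMM (edgeR's correction for library composition). In spleen doxycycline it stood at 422, 7.62 and 31.1 CPM, against 1194, 1198 and 1146 CPM in spleen control. The spleen control libraries were high and close to each other, the 4 secondary disease libraries were low and close to each other, and the spleen doxycycline libraries were spread, with 1 between those groups, 1 within the secondary disease range and 1 below it.

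Bone marrow doxycycline had 89.6, 147 and 89.0 CPM of Tph1, against 207, 52.6 and 52.7 CPM in bone marrow control. These marrow groups overlapped, and both lay far below spleen control. In the spleen controls Tph1 ranked 158 to 165 among all 55487 genes by TPM (a transcript level corrected for gene length) and took 0.118 to 0.124% of all counts.

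Secondary disease against spleen control was the comparison in which Tph1 passed the test. Its level was lower in all 4 secondary disease libraries, with a log2 fold change of -5.47 ± 1.00 (SE) and an adjusted p of 0.0131 (edgeR's quasi-likelihood test with Benjamini-Hochberg adjustment over 14435 genes). It was the only one of the 8 tested members called in this comparison, where 2.03% of all genes were called and 1.28% were called lower. This pattern of Tph1, high in spleen control and low in secondary disease, was known when the genes were chosen. The value therefore describes the size of the difference and is no independent evidence. The same holds for every Tph1 value below that involves spleen control or secondary disease. Without spleen control replicate 2 the log2 fold change was -5.47 and the adjusted p 0.0508. DESeq2 gave no adjusted p for Tph1 in this or any other comparison and so could not call it. limma-voom called it at -5.50 with an adjusted p of 0.00994, where 2.44% of all genes were called.

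In spleen doxycycline against spleen control, 0 of 8 tested members were called, beside 0.741% of all genes. By edgeR 1 member had an unadjusted p under 0.05, and limma-voom called 1 member, Tph1. All 3 doxycycline libraries lay below all 3 control libraries for Tph1, at a log2 fold change of -2.94 ± 1.00 by edgeR with an adjusted p of 0.205. Without spleen doxycycline replicate 1, the library at 422 CPM, the log2 fold change was -5.93 with an edgeR adjusted p of 0.000473, in a fit that called 9.13% of all genes. The other 15 of the 16 fits with a single library left out did not call Tph1. Over all 16 the log2 fold change ran from -5.93 to -2.38 and the edgeR adjusted p from 0.000473 to 0.475. By limma-voom on all libraries the log2 fold change was -4.63 with an adjusted p of 0.0460, where 0.693% of all genes were called.

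Erythroid markers moved in the same libraries. The summed level of 9 erythroid genes was 5813, 86649 and 41039 CPM in spleen doxycycline, against 3010, 5096 and 4387 CPM in spleen control, with none at 0. Of these 9 genes, 4 rose in spleen doxycycline against control. Among the doxycycline libraries the erythroid sum was lowest where Tph1 was highest and highest where Tph1 was lowest. The sum of 8 megakaryocyte and platelet genes ran the other way, at 790, 24.5 and 325 CPM, with 1 to 3 of them at 0. Secondary disease, with the lowest group mean of Tph1, had an erythroid sum of 4149 to 6873 CPM. Bone marrow doxycycline had 48157 to 60846 CPM, at a Tph1 log2 fold change of 0.06 against its control. The part of these markers in the Tph1 levels was not tested.

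In spleen control against bone marrow control, 0 of 8 tested members were called by edgeR, beside 0.187% of all genes, and 3 members had an unadjusted p under 0.05. Neither DESeq2 (2.11% of all genes called) nor limma-voom (1.18%) called a member. DESeq2 gave no adjusted p for Tph1 in any comparison, so it could not call Tph1. For Tph1 the log2 fold change was 3.50 ± 1.03 with an edgeR adjusted p of 0.244, and the groups did not overlap. Without spleen doxycycline replicate 1, which is in neither group but adds to the shared estimate of spread, the edgeR adjusted p was 0.0169 at the same log2 fold change of 3.50, in a fit that called 0.602% of all genes. The other 15 of the 16 fits with a single library left out did not call Tph1, with an edgeR adjusted p of up to 0.801. The high level of Tph1 in spleen control was known when the genes were chosen, so these values are no independent evidence.

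For bone marrow doxycycline against control, Tph1 had a log2 fold change of 0.06 ± 0.94 and an edgeR adjusted p of 0.983, with a 95% interval of -1.77 to 1.89. The difference between the doxycycline effects (spleen minus marrow) was -3.0 ± 1.35 for Tph1, with an edgeR adjusted p of 0.636. Without spleen doxycycline replicate 1 that difference was -5.99 with an edgeR adjusted p of 0.0168, in a fit that called 0.248% of all genes. The other 15 of the 16 fits with a single library left out did not call it. Over all 16 the difference ran from -5.99 to -2.44.

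Secondary disease against spleen doxycycline gave 0 calls among 8 tested members, beside 0.928% of all genes, and 1 member had an unadjusted p under 0.05. DESeq2 (6% of all genes called) and limma-voom (0.457%) also called 0 members, although DESeq2 gave no adjusted p for Tph1. For Tph1 the log2 fold change was -2.53 ± 0.90 with an edgeR adjusted p of 0.166, and the groups overlapped. Without spleen doxycycline replicate 1 the sign turned, to a log2 fold change of 0.46. That Tph1 is low in secondary disease was known when the genes were chosen, so these Tph1 values are no independent evidence.

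**Figure D1:**
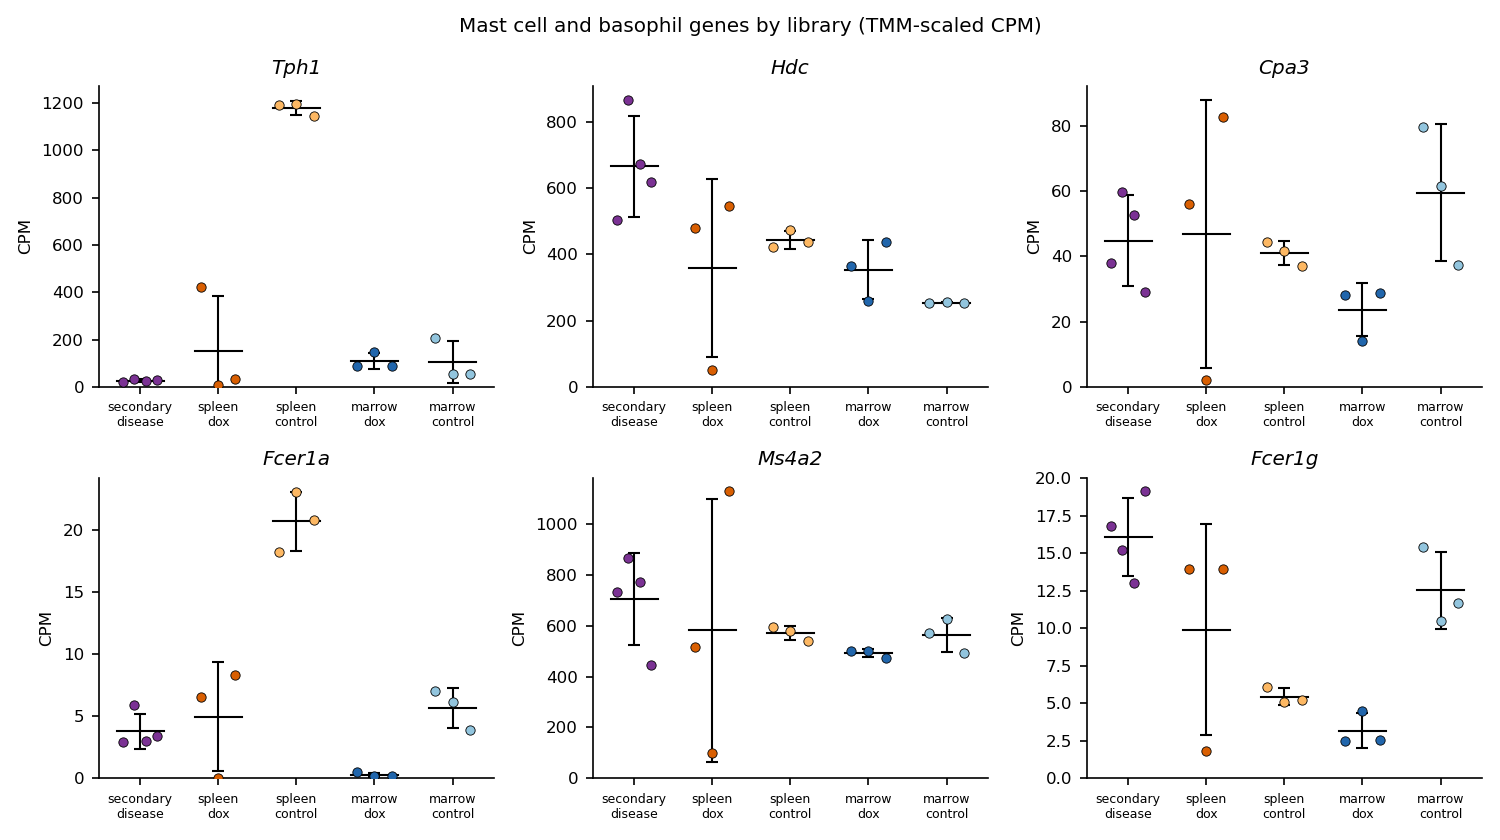
TMM-scaled CPM of the 6 mast cell and basophil genes with the most counts, in each library; each point is a library, horizontal lines are group means and bars are SD (n = 4 in secondary disease, 3 elsewhere). Tph1 lies at 1146 to 1198 CPM in spleen control and at 20.9 to 32.9 CPM in secondary disease, whereas Hdc lies higher in secondary disease and Fcer1a has its lowest mean in bone marrow doxycycline.

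Hdc encodes histidine decarboxylase, which makes histamine (ENSMUSG00000027360, chromosome 2, 126593667 to 126619299, minus strand). Its order of groups was not that of Tph1: secondary disease was at the top and bone marrow control at the bottom. Hdc had 502, 867, 673 and 619 CPM in secondary disease and 478, 52.2 and 545 CPM in spleen doxycycline, against 420, 472 and 436 CPM in spleen control. All 4 secondary disease libraries were above the spleen controls, and spleen doxycycline replicate 2 was far below every other library.

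In marrow, Hdc had 364, 259 and 437 CPM in bone marrow doxycycline, against 253, 255 and 253 CPM in bone marrow control. The doxycycline libraries were all higher, 1 of them only just, and no comparison passed the test. By edgeR the log2 fold change was 0.48 ± 0.53 for bone marrow doxycycline against control (adjusted p = 0.683). It was 0.59 ± 0.50 for secondary disease against spleen control (adjusted p = 0.669). For spleen control against bone marrow control it was 0.80 ± 0.53 with an edgeR adjusted p of 0.998. In models of only the groups compared, 2 of these passed. Bone marrow doxycycline against control then gave 0.49 with an edgeR adjusted p of 0.0347, where 36.6% of all genes were called. Spleen control against bone marrow control then gave 0.80 with an edgeR adjusted p of 0.000119, where 14.7% of all genes were called. With the libraries that stand apart left out, the comparison of the controls gave 0.80 with an edgeR adjusted p of 0.0260, where 6.07% of all genes were called.

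Cpa3 encodes carboxypeptidase A3, a mast cell granule protease that is also made by basophils (ENSMUSG00000001865, chromosome 3, 20215620 to 20242181, minus strand). It had 28.1, 14.2 and 28.7 CPM in bone marrow doxycycline, against 79.5, 61.7 and 37.5 CPM in bone marrow control. All doxycycline libraries were below all marrow controls. The log2 fold change was -1.33 ± 0.75 and did not pass (edgeR adjusted p = 0.339). With both libraries that stand apart left out of the model, it was -1.33 with an edgeR adjusted p of 0.00589, in a fit that called 29.5% of all genes.

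In the spleen, Cpa3 had 37.8, 59.7, 52.6 and 29.0 CPM in secondary disease and 56.0, 2.11 and 82.6 CPM in spleen doxycycline, against 44.4, 41.5 and 37.1 CPM in spleen control. Apart from spleen doxycycline replicate 2, the spleen groups lay in 1 range. Secondary disease against spleen control gave a log2 fold change of 0.13 ± 0.69 (edgeR adjusted p = 0.960).

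Mcpt8 and Tpsb2 had few counts or none. Mcpt8, the basophil protease of mice (chromosome 14, 56082166 to 56085273, minus strand), had 9, 19 and 6 counts in bone marrow doxycycline, against 6, 3 and 16 counts in bone marrow control. It had 2 counts in secondary disease replicate 1 and 0 in the other 3 secondary disease libraries. All 6 spleen control and spleen doxycycline libraries had 0 counts. With 3 counts as the limit that a count of 0 allows, levels up to 0.0737 to 0.136 CPM would have gone undetected in those spleen libraries. Intervals and limits of this kind cover counting error only.

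Tpsb2, a tryptase of connective tissue mast cells (chromosome 17, 25366305 to 25369098, plus strand), had 0 counts in all 16 libraries, where 3 counts would be 0.0737 to 0.260 CPM. Of 7 defining mast cell markers (Cpa3, Tpsb2, Tpsab1, Cma1, Mcpt4, Mrgprb2 and Kit), 3 to 5 were at 0 in each library. Cma1, the chymase mMCP-5, reached 2.03, 11.3, 7.14 and 0.260 CPM in secondary disease and 4.88, 3.69 and 3.31 CPM in spleen control. Mcpt1, a protease of mucosal mast cells named after its values were seen, had 2.07, 16.6, 8.78 and 10.6 CPM in secondary disease and 0.0321, 0.160 and 8.70 CPM in spleen doxycycline, against 0.924, 0.816 and 0.786 CPM in spleen control. All 4 secondary disease libraries and spleen doxycycline replicate 3 were above the controls for Mcpt1, for which no test is given here. Cma1 differed, with secondary disease replicates 1 and 4 below the spleen controls and replicates 2 and 3 above them. Of 11 tested genes in a list of other granule genes, edgeR called 0 in secondary disease against spleen control, beside 2.03% of all genes.

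Ms4a2, the beta chain of the IgE receptor (ENSMUSG00000024680, chromosome 19, 11615523 to 11623719, minus strand), was the most abundant of the 3 chains by TPM in every library. It had 732, 868, 771 and 446 CPM in secondary disease and 516, 99.8 and 1131 CPM in spleen doxycycline, against 595, 582 and 542 CPM in spleen control. In marrow it had 500, 502 and 475 CPM in bone marrow doxycycline, against 573, 627 and 491 CPM in bone marrow control. The control and marrow libraries lay close together, and the spread was widest in spleen doxycycline.

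No comparison called Ms4a2. The log2 fold change was -0.20 ± 0.53 for bone marrow doxycycline against control (edgeR adjusted p = 0.890). It was 0.02 ± 0.53 for spleen doxycycline against control and 0.30 ± 0.50 for secondary disease against spleen control (edgeR adjusted p = 0.994 and 0.857).

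Fcer1a, the IgE-binding alpha chain (ENSMUSG00000005339, chromosome 1, 173221284 to 173227214, minus strand), had its lowest group mean in bone marrow doxycycline. It had 0.469, 0.221 and 0.197 CPM there, from 11, 6 and 5 counts, against 7.02, 6.11 and 3.88 CPM in bone marrow control, from 172, 171 and 91 counts. Every doxycycline library was far below every control library.

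Fcer1g, the signalling gamma chain that also serves receptors for IgG (ENSMUSG00000058715, chromosome 1, 171229572 to 171234365, minus strand), was lower in the same marrow comparison. It had 2.47, 4.49 and 2.57 CPM in bone marrow doxycycline, against 15.4, 10.5 and 11.7 CPM in bone marrow control, again with no overlap.

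Bone marrow doxycycline against control called these 2 of 8 tested members, both lower, where 6.57% of all genes were called and 2.61% were called lower. Fcer1a fell by 4.25 ± 1.12 on the log2 scale with an edgeR adjusted p of 0.0376. Fcer1g fell by 1.97 ± 0.53 on the log2 scale with an edgeR adjusted p of 0.0414. The median log2 fold change over the 8 tested members was -0.80, against -0.02 over all genes. Its middle values were those of Prg2 (-0.89 ± 1.83) and Epx (-0.71 ± 2.30), both uncalled, so it shows no shift of the whole set. The member median was -0.15 in spleen doxycycline against control and 0.59 in the difference between the effects. It was -0.26 between the controls, and 0.21 and 0.11 in secondary disease against spleen control and spleen doxycycline.

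Both calls lie near the threshold. Both were lost when any single marrow library, any single spleen control library, or secondary disease replicate 1 or 3 was left out, and Fcer1g alone was lost without secondary disease replicate 2. Over all 16 such fits the log2 fold change of Fcer1a ranged from -4.75 to -4.03 and its edgeR adjusted p from 3.6e-05 to 0.157. That of Fcer1g ranged from -2.31 to -1.79, with an edgeR adjusted p from 0.000222 to 0.154. The smallest p of each was without spleen doxycycline replicate 2. limma-voom called neither gene, beside 6.51% of all genes, and DESeq2 called both, beside 13.8% of all genes. With no filter on low counts neither passed, at an edgeR adjusted p of 0.100 for Fcer1a and 0.0806 for Fcer1g.

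The same marrow libraries differed in markers of other cells. The summed level of 9 erythroid genes was 48157 to 60846 CPM in bone marrow doxycycline and 2386 to 4408 CPM in bone marrow control, with none at 0, and 8 of these 9 rose. The summed level of 12 mature neutrophil genes was 329 to 672 CPM in bone marrow doxycycline and 897 to 1337 CPM in bone marrow control, with none at 0, and 0 of the 12 were called. The summed level of 8 megakaryocyte and platelet genes was 79.4 to 112 CPM in bone marrow doxycycline and 351 to 431 CPM in bone marrow control, with 0 to 3 of the 8 at 0 in a library. Of its 4 tested genes, 2 fell. The part of these markers in the lower Fcer1a and Fcer1g was not tested. In bulk RNA of this kind, fewer cells of a type and less RNA per cell cannot be told apart.

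In the spleen, Fcer1a had 2.94, 5.90, 3.01 and 3.38 CPM in secondary disease and 6.55, 0 and 8.34 CPM in spleen doxycycline, against 18.3, 23.0 and 20.8 CPM in spleen control. Spleen control libraries were above all others, and spleen doxycycline replicate 2 had 0 counts, where 3 counts would be 0.120 CPM. The log2 fold change was -2.44 ± 0.89 for secondary disease against spleen control (edgeR adjusted p = 0.195). It was -2.06 ± 0.97 for spleen doxycycline against spleen control (edgeR adjusted p = 0.412).

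Fcer1g was lower in the spleen controls than in every other spleen library except spleen doxycycline replicate 2. It had 16.8, 15.2, 13.0 and 19.2 CPM in secondary disease and 13.97, 1.79 and 13.95 CPM in spleen doxycycline, against 6.07, 5.07 and 5.20 CPM in spleen control. Every secondary disease library exceeded every spleen control. The log2 fold change of 1.56 ± 0.50 did not pass by edgeR (adjusted p = 0.144). It passed by DESeq2 (adjusted p = 0.0283), which called 5.24% of all genes there. For spleen doxycycline against control it was 0.86 ± 0.52 (edgeR adjusted p = 0.559).

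Between spleen control and bone marrow control, Fcer1a had a log2 fold change of 1.87 ± 0.96 (edgeR adjusted p = 0.815) and Fcer1g one of -1.20 ± 0.52 (edgeR adjusted p = 0.630), and neither passed. The groups did not overlap for either gene.

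The difference between the doxycycline effects, spleen minus marrow, called 0 of 8 tested members by edgeR, beside 0.0485% of all genes, and 2 members had an unadjusted p under 0.05. DESeq2 called 1, Fcer1g, in a fit that called 1.73% of all genes, and gave no adjusted p for Tph1. By limma-voom 0 were called, beside 0.236% of all genes. For Fcer1g the difference was 2.84 ± 0.74 on the log2 scale with an edgeR adjusted p of 0.201. For Fcer1a it was 2.19 ± 1.39 with an edgeR adjusted p of 0.789.

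Spleen doxycycline replicate 2 weighs on all of these values because the 16 libraries share 1 estimate of spread. The spread of spleen doxycycline replicate 1, given above for Tph1, enters the same estimate. Fits without replicate 2 call more of all genes as well in the 3 comparisons that follow. Without it, secondary disease against spleen control called 3 members, Tph1, Fcer1a and Fcer1g, and 3.43% of all genes. Fcer1a then had a log2 fold change of -2.44 (edgeR adjusted p = 0.00115) and Fcer1g one of 1.55 (edgeR adjusted p = 0.00285). The difference between the doxycycline effects then called 3 members and 4.32% of all genes, at 3.33 for Fcer1g, 2.77 for Fcer1a and 2.09 for Cpa3 (edgeR adjusted p = 0.000318, 0.0115 and 0.0321). Spleen control against bone marrow control then called 0.763% of all genes, among them Fcer1a at 1.87 and Fcer1g at -1.20 (edgeR adjusted p = 0.0335 and 0.0461).

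With secondary disease replicate 4 left out as well, spleen doxycycline against control called Fcer1a at -1.48 and Fcer1g at 1.36 (edgeR adjusted p = 0.0208 and 0.00669), where 7.16% of all genes were called. This fit drops the spleen doxycycline library with 0 counts of Fcer1a and with less Fcer1g than any spleen control. Only replicates 1 and 3 of spleen doxycycline remain. With all libraries the edgeR adjusted p was 0.412 for Fcer1a and 0.559 for Fcer1g. None of the 16 fits with a single library left out called either gene.

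Levels of the chains can be set side by side in TPM. The ratio of Fcer1g to Fcer1a was 0.391 to 0.595 in spleen control, the one group in which the alpha chain exceeded the gamma chain in every library. It was 4.70 to 10.03 in secondary disease, 9.54 to 36.1 in bone marrow doxycycline and 3.12 to 5.42 in bone marrow control. In spleen doxycycline it was 3.80 and 3.03 in replicates 1 and 3, and replicate 2, with 0 TPM of Fcer1a, gave no ratio. Ms4a2 exceeded Fcer1g by 5.68- to 16.2-fold in secondary disease and by 27.3- to 33.1-fold in spleen control. In spleen doxycycline the excess was 9.46-, 15.0- and 21.9-fold. In marrow the excess was 30.2- to 56.8-fold with doxycycline and 10.3- to 16.4-fold in control.

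**Figure D2:**
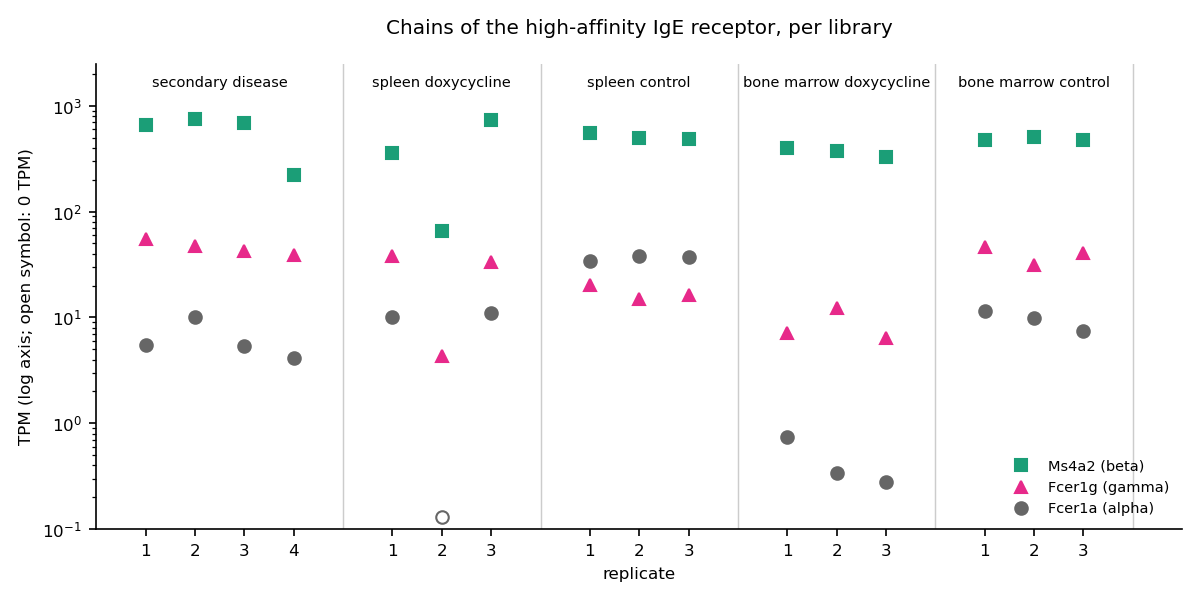
TPM on a log axis of the 3 chains of the IgE receptor in each library, with groups side by side and replicate number on the x axis; the open symbol is a library at 0 TPM. Fcer1a lies above Fcer1g in the 3 spleen control libraries alone, and Ms4a2 is the highest chain in all 16.

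**Figure D3:**
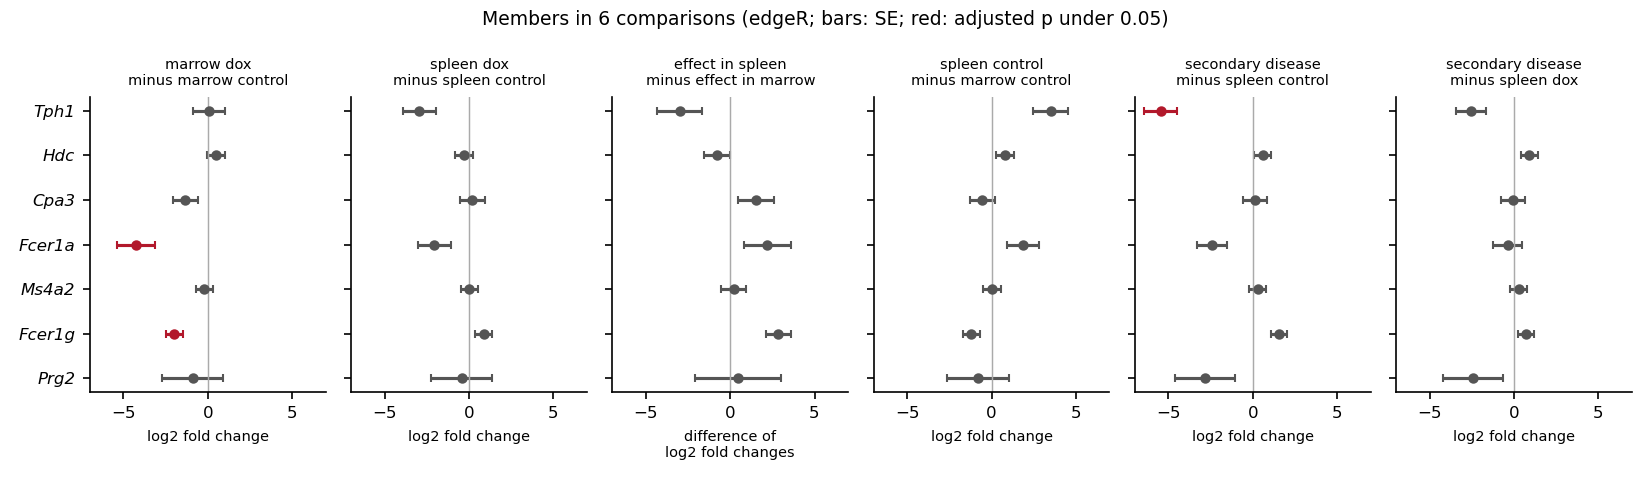
Log2 fold changes of 7 members in the 6 comparisons by edgeR, each with its standard error; red marks an adjusted p under 0.05. Red points are Fcer1a and Fcer1g for bone marrow doxycycline minus control and Tph1 for secondary disease minus spleen control.

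Epx, Ear1 and Ear6 had counts in few libraries, and Prg2 in more. Epx, eosinophil peroxidase (chromosome 11, 87864000 to 87875536, minus strand), had 0, 141 and 2 counts in bone marrow doxycycline, against 2, 0 and 201 counts in bone marrow control. It had 25 counts in secondary disease replicate 1, and 0 in the other 3 secondary disease libraries and in all 6 spleen doxycycline and spleen control libraries. For bone marrow doxycycline against control the log2 fold change was -0.71 ± 2.30 (edgeR adjusted p = 0.914).

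Prg2, the major basic protein of eosinophil granules (chromosome 2, 84980461 to 84983632, plus strand), had 0.640, 13.6 and 0.592 CPM in bone marrow doxycycline, against 3.47, 0.322 and 23.8 CPM in bone marrow control. The high libraries of Prg2 and Epx in marrow were the same: bone marrow doxycycline replicate 2 and bone marrow control replicate 3. Ear1 and Ear6, ribonucleases of the eosinophil family, had counts in those 2 libraries and in secondary disease replicate 1, and were at 0 in the other 13. Ear1 had 0.621 CPM in secondary disease replicate 1, 1.84 CPM in bone marrow doxycycline replicate 2 and 3.66 CPM in bone marrow control replicate 3.

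In the spleen, Prg2 had counts where Epx had none. It had 2.77, 0.0391, 0 and 0 CPM in secondary disease and 11.01, 0.120 and 0.589 CPM in spleen doxycycline, against 5.01, 4.81 and 6.01 CPM in spleen control. Spleen control thus held Prg2 at an even level while Epx, Ear1 and Ear6 were at 0 there. Secondary disease was below spleen control in all 4 libraries, at a log2 fold change of -2.86 ± 1.78 that did not pass (edgeR adjusted p = 0.516).

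**Figure D4:**
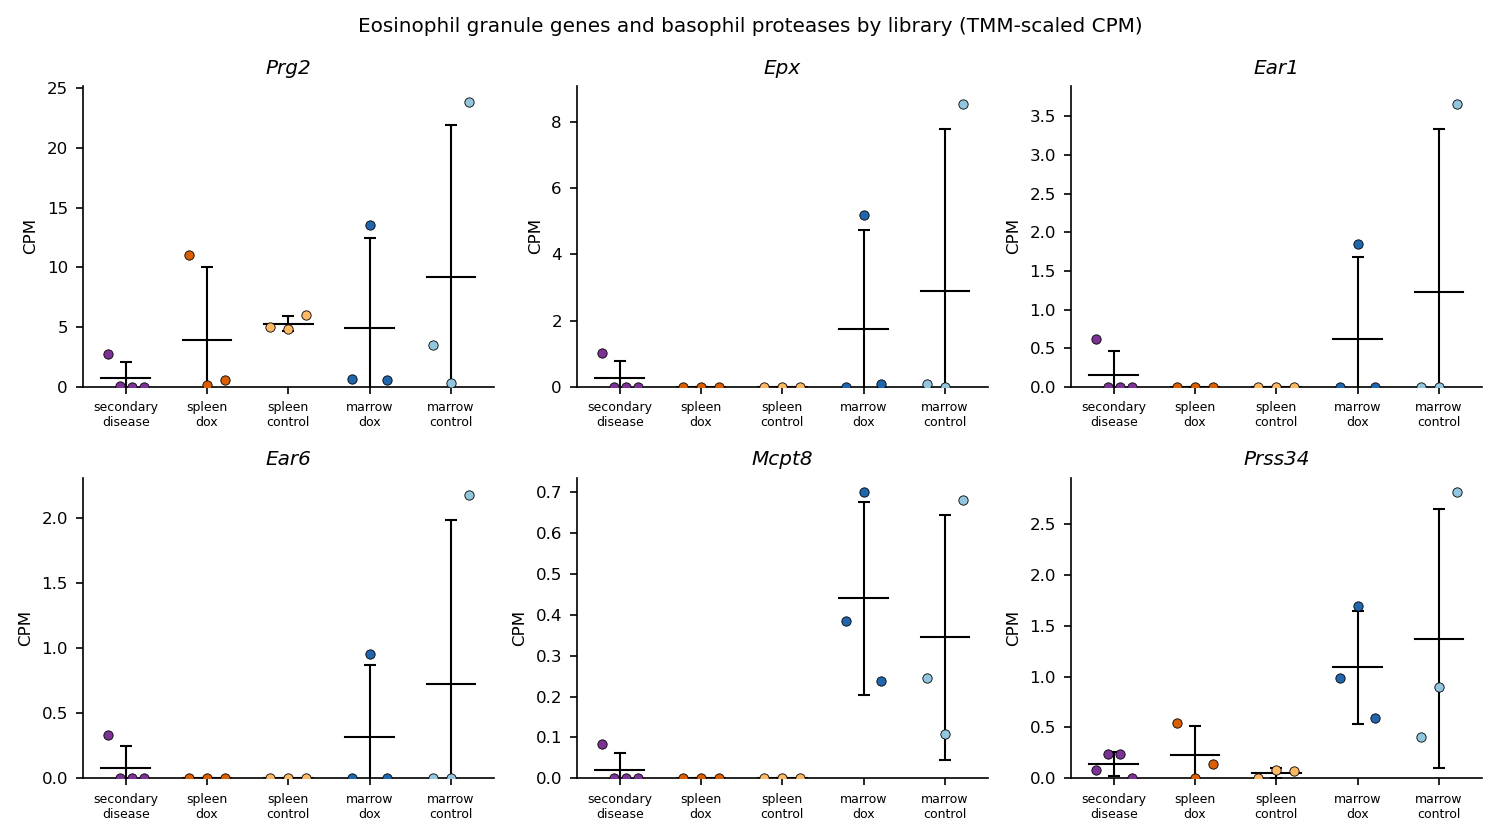
TMM-scaled CPM per library of 4 eosinophil granule genes and the basophil proteases Mcpt8 and Prss34; points are libraries, lines are means and bars SD (n = 4 in secondary disease, 3 elsewhere). Epx, Ear1 and Ear6 are at 0 in spleen control and spleen doxycycline, and Prg2 lies at 4.81 to 6.01 CPM in spleen control.

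Among themselves, the members did not move as 1 block over the 16 libraries. Pearson's r of log2 CPM was 0.91 for Cpa3 with Ms4a2 and 0.85 for Hdc with Ms4a2. Without the libraries that stand apart, those values were 0.60 and 0.62. Tph1 had an r of 0.22 with Hdc and 0.56 with Fcer1a, and without the 2 libraries -0.18 and 0.43. These libraries share groups and depth, so the values are descriptions.

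Among 8767 genes with enough counts, those with the pattern most like Tph1 were Rab44, Socs1 and Shisa5, with an r of 0.95, 0.94 and 0.93 over 16 libraries. For Fcer1a they were Sccpdh, Dusp19 and Rhoh, at 0.96, 0.95 and 0.95. Csnk1e, Cmtm7 and Casz1 were closest to Fcer1g, at 0.96, 0.96 and 0.93. Rinl, Arhgef3 and Dbx2 were closest to Hdc, at 0.93, 0.92 and 0.90. Slc25a24 was among the 3 closest to both Cpa3 (0.97, with Bbs9 at 0.96) and Ms4a2 (0.94, with Far2 at 0.96 and Ctnnal1 at 0.93). Prg2 was closest to Plekhn1, Gmip and Itgal, at 0.89, 0.83 and 0.80, and Epx to Bicra, Cd74 and Rnf111, at only 0.68, 0.65 and 0.65. Without the libraries that stand apart, Ms4a2 had 0.68 with Slc25a24, 0.83 with Far2 and 0.75 with Ctnnal1. Hdc then had 0.80, 0.82 and 0.63 in the order above, and Cpa3 had 0.88 with Slc25a24 and 0.86 with Bbs9. Prg2 had 0.87, 0.78 and 0.79, and Epx 0.67, 0.73 and 0.69. The genes named for Tph1, Fcer1a and Fcer1g stayed at 0.92 or above.

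Other genes of the same pathways are given as counts, which can be read beside the share of all genes called. That share was 6.57% in bone marrow doxycycline against control. Of 15 genes of serotonin handling, 9 were tested; in bone marrow doxycycline against control 2 rose and 1 fell, and 0 were called in the other 5 comparisons. Ddc, the decarboxylase that turns the product of Tph1 into serotonin, had 433, 522 and 499 CPM in bone marrow doxycycline, against 235, 196 and 198 CPM in bone marrow control. It rose by 1.21 ± 0.28 on the log2 scale (edgeR adjusted p = 0.0227), with every doxycycline library above every control.

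Slc18a2, the transporter VMAT2 that loads serotonin and histamine into granules, had 53.4, 43.5 and 51.6 CPM in bone marrow doxycycline, against 363, 366 and 444 CPM in bone marrow control. It fell by 2.98 ± 0.81 on the log2 scale (edgeR adjusted p = 0.0432), and every doxycycline library was below every control. Its related transporter Slc18a1, at very low levels, rose by 2.89 ± 0.81 (edgeR adjusted p = 0.0478), averaging 1.52 CPM in bone marrow doxycycline and 0.202 CPM in bone marrow control. Tph1 and Hdc did not pass in the same comparison.

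In the spleen Slc18a2 had 394, 368, 374 and 157 CPM in secondary disease and 379, 8.22 and 311 CPM in spleen doxycycline, against 356, 369 and 369 CPM in spleen control. Of 9 genes of histamine handling, 5 were tested, and the only call in any comparison was the same Slc18a2 in marrow.

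Of 16 other granule genes, 11 were tested. Ctsd, the lysosomal protease cathepsin D, rose by 0.92 ± 0.20 on the log2 scale in bone marrow doxycycline against control (edgeR adjusted p = 0.0180). It fell by 0.99 ± 0.18 in secondary disease against spleen doxycycline (edgeR adjusted p = 0.0277), and these were the only calls.

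Of 16 genes of lipid mediators and cytokines, 12 were tested, with 1 call. Ltc4s, which makes leukotriene C4, had 0.725, 0.626 and 1.11 CPM in bone marrow doxycycline, against 9.95, 7.29 and 7.92 CPM in bone marrow control. It fell by 3.35 ± 0.77 on the log2 scale (edgeR adjusted p = 0.0235).

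Of 18 surface receptor genes, 15 were tested and 0 were called in any of the 6 comparisons. Csf2rb, the common beta chain of the receptors for IL-3, IL-5 and GM-CSF, had 1621, 1764 and 1692 CPM in spleen control, against 578, 303 and 467 CPM in bone marrow control. The groups did not overlap, and the log2 fold change of 1.91 ± 0.48 did not pass (edgeR adjusted p = 0.153). All 18 genes of signalling downstream of the IgE receptor were tested, and 1 was called. Gab2, an adaptor that binds PI3-kinase, fell by 1.23 ± 0.29 in secondary disease against spleen control (edgeR adjusted p = 0.0446), at 46.8 to 112 CPM in secondary disease and 201 to 208 CPM in spleen control.

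Of 15 other eosinophil genes, 8 were tested. Siglecf, the eosinophil lectin, had 0.725, 0.773 and 1.07 CPM in bone marrow doxycycline, against 21.5, 11.1 and 12.3 CPM in bone marrow control. It fell by 4.12 ± 0.87 on the log2 scale (edgeR adjusted p = 0.0167). Cebpe, a factor of terminal granulocyte maturation, was at 0.166, 0.0391, 0.117 and 0 CPM in secondary disease, against 7.79, 6.74 and 6.78 CPM in spleen control. It fell by 6.24 ± 1.15 there and by 6.28 ± 1.15 against spleen doxycycline (edgeR adjusted p = 0.0140 and 0.0265). Cd24a, also made by erythroid precursors, passed in spleen doxycycline against control at 6.51 ± 1.18 (edgeR adjusted p = 0.0404), although replicate 1 at 5.62 CPM lay within the control range of 4.04 to 6.51 CPM.

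Of 18 transcription factors of these lineages, 17 were tested, and 3 rose and 1 fell in bone marrow doxycycline against control, beside 6.57% of all genes called. Gata2, a factor of progenitors and mast cells, had 577, 844 and 616 CPM in bone marrow doxycycline, against 264, 235 and 293 CPM in bone marrow control. It rose by 1.36 ± 0.32 on the log2 scale (edgeR adjusted p = 0.0249). Gata1, shared by erythroid cells, mast cells and eosinophils, rose by 0.61 ± 0.14 (edgeR adjusted p = 0.0246) and Xbp1 by 0.70 ± 0.17 (edgeR adjusted p = 0.0303).

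Xbp1, a factor of secretory cells and eosinophils, was called in 5 of the 6 comparisons. It averaged 45.6 CPM in secondary disease, 45.9 CPM in spleen doxycycline and 82.1 CPM in spleen control. Against spleen control it fell by 0.85 ± 0.16 in secondary disease and by 0.84 ± 0.17 in spleen doxycycline (edgeR adjusted p = 0.0149 and 0.0451). Spleen control exceeded bone marrow control by 1.08 ± 0.17, and the difference between the doxycycline effects was -1.54 ± 0.24 (edgeR adjusted p = 0.0293 and 0.0445). All of these comparisons use the same spleen control libraries, so their calls are not independent of each other.

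**Figure D5:**
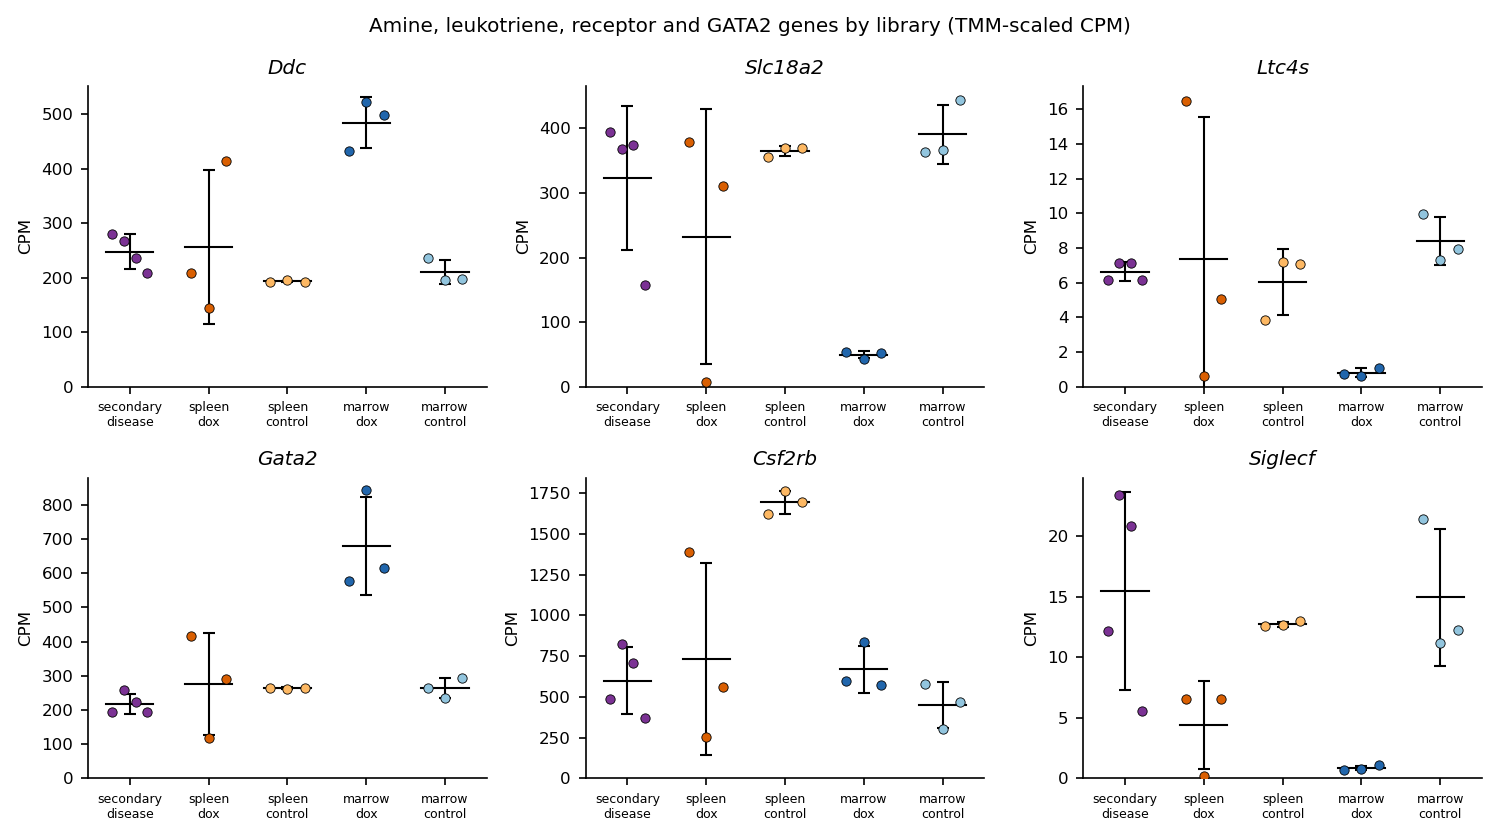
TMM-scaled CPM per library of 6 genes of the same pathways; points are libraries, lines are means and bars SD (n = 4 in secondary disease, 3 elsewhere). In bone marrow doxycycline Ddc and Gata2 lie above and Slc18a2, Ltc4s and Siglecf below all bone marrow control libraries, and Csf2rb is highest in spleen control.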

How the data were processed

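RNA of the 16 libraries was isolated with TRIzol and, after selection with oligo-dT, made into libraries with NEBNext Ultra II reagents, per the labels' protocols. Whether strand was kept is not stated. The authors deposited expected counts (estimated counts that need not be whole) of 55487 genes in 1 table, and TPM values in 1 file per library. STAR, RSEM, Trim Galore, MultiQC and FastQC, and the build GRCm38, are named per the submitters' processing notes, with no versions. All columns were matched to libraries by name, leaving 0 unused. Replicates are numbered in the titles, which do not state that they are different mice, so p-values measure the spread between samples that may be technical. No replicate pair agreed within sampling noise, since chi-square per degree of freedom was at least 8.06.

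Counts were rounded and tested in edgeR 4.0.16 (R 4.3.3) by the quasi-likelihood test with robust fitting, filterByExpr, TMM scaling and 1 mean per group. The filter left 14435 genes. P-values are two-sided, Benjamini-Hochberg adjusted over all genes, and called under 0.05. SEs are approximate: the absolute log2 fold change divided by root F. Correlations used log2 CPM with a prior count of 2 and genes of average log2 CPM of at least 3. Of all gene identifiers, 55394 matched GENCODE M21.

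The members, gene lists and rules were chosen with earlier results of these data known. All 10 members were described in each comparison. From each list, up to 3 called genes with the smallest p were named per comparison, or up to 2 uncalled ones, and some of these are left out of the text. Alternatives were RLE size factors, a minimum mean count of 50 or none in place of the filter, models of the compared groups alone, a replicate block, omission of each library, DESeq2 1.42.0, limma-voom (limma 3.58.1) and TPM. Steps were tested on simulated counts. Leaving out both libraries that stand apart was chosen after the data were seen. One gene among those with patterns most like the members' is not reported here.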

Additional observations from a re-analysis of the deposited data

Results flagged for a closer look

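In secondary disease, the group of 4 libraries, 4 members had a library far from the other 3. Chance flags about 1 in 20 groups of measured values in this way, but that rate does not hold for Mcpt8 and Epx, where the other 3 libraries were at 0 and any count at all is flagged. Nor does it hold for Prg2, whose other 3 libraries had 1, 0 and 0 counts. Replicate 1 stood above the others for 3 genes, with Mcpt8 at 0.0828 CPM, Prg2 at 2.77 CPM and Epx at 1.04 CPM. The Mcpt8 value rests on 2 counts. Replicate 2 stood above the others for Fcer1a, at 5.90 CPM against 2.94 to 3.38 CPM in the rest of the group. Secondary disease replicate 1 also held 0.621 CPM of Ear1 and 0.331 CPM of Ear6, which were at 0 in the other 3.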

How the results depend on the processing

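Neither other size factors nor a mean count of at least 50 changed the number of members called in any of the 6 comparisons. For bone marrow doxycycline against control (2 members called, 949 of all genes), members and all genes called were 0 and 349 with no filter and 4 and 4929 with only the groups compared. They were 2 and 1996 by DESeq2, 0 by limma-voom, 3 and 4331 with both libraries that stand apart left out, and 0 to 3 and 23 to 2428 with single libraries left out. For spleen doxycycline against control (0 and 107) all genes called were 10 with no filter, 1 with only the groups compared and 715 by DESeq2. limma-voom called 1 member, both libraries left out gave 2 and 1051, and single libraries left out gave 0 to 1 and 0 to 1364. For the difference between the effects (0 and 7) no filter gave 2 genes, only the groups compared 23, DESeq2 1 and 250, limma-voom 34, both libraries left out 3 and 2462, and single libraries left out 0 to 3 and 0 to 645. For spleen control against bone marrow control (0 and 27) no filter gave 7 genes, only the groups compared 4 and 1927, DESeq2 304, limma-voom 170, both libraries left out 5 and 890, and single libraries left out 0 to 2 and 0 to 190. For secondary disease against spleen control (1 and 293) no filter gave 134 genes, only the groups compared 3 members, DESeq2 756 genes, both libraries left out 3 and 1193, and single libraries left out 0 to 3 and 61 to 523. DESeq2 gave no adjusted p for Tph1 there or in the other comparisons, and called Fcer1g in this one. For secondary disease against spleen doxycycline (0 and 134) no setting called a member, and all genes called were 26 with no filter, 0 with only the groups compared, 866 by DESeq2, 66 by limma-voom, 1164 with both libraries left out and 0 to 1336 with single libraries left out.

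Same-numbered libraries did not deviate together (correlations of -0.27 to 0.16). With so few libraries per group, this cannot show whether the same number stands for the same mouse. With the replicate block, all genes called were 1966, 374, 39, 117, 421 and 347 in the order above, and the members called stayed at 2, 0, 0, 0, 1 and 0. Signs of uncalled log2 fold changes turned with the block for Ms4a2 (-0.11) and Cpa3 (-0.01) in spleen doxycycline against control, Prg2 (-0.99) in the difference, and Cpa3 (0.34) in secondary disease against spleen doxycycline. With no filter Ms4a2 was at 0 in spleen doxycycline against control.

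By limma-voom they turned for Epx (0.04) in marrow; Cpa3 (-0.92) and Ms4a2 (-0.56) in spleen doxycycline against control; Fcer1a (-0.02), Ms4a2 (-0.37) and Prg2 (-1.7) in the difference; Prg2 (0.96) between the controls; and Cpa3 (1.04) and Fcer1a (1.8) in secondary disease against spleen doxycycline. With both libraries left out they turned for Hdc (0.21) and Prg2 (0.15) in spleen doxycycline against control and Ms4a2 (-0.06) in secondary disease against spleen doxycycline. The cause was not tested.

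With single libraries left out, signs turned for uncalled values only. In marrow doxycycline against control Tph1 ran from -0.29 to 1.05, Prg2 from -3.89 to 1.35 and Epx from -5.99 to 5.29. In spleen doxycycline against control Hdc ran from -0.74 to 0.21, Cpa3 from -0.49 to 0.76, Ms4a2 from -0.9 to 0.52 and Prg2 from -3.9 to 0.14. In the difference Ms4a2 ran from -0.7 to 0.72 and Prg2 from -3 to 3.46. Between the controls Ms4a2 ran from -0.07 to 0.11 and Prg2 from -1.36 to 1.48. Cpa3 ran from -0.04 to 0.29 in secondary disease against spleen control. Against spleen doxycycline, secondary disease gave -3.1 to 0.46 for Tph1, -0.63 to 0.62 for Cpa3, -0.97 to 0.21 for Fcer1a, -0.23 to 1.19 for Ms4a2 and -7.59 to 1.04 for Prg2. In TPM each member kept its top group, and the order of the lower groups differed for Tph1, Hdc, Cpa3 and Ms4a2. Depth limits Mcpt8, Tpsb2 and Epx, which had few or no counts in most libraries.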
